A study of Mus musculus with 10 samples.

Results

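Embryonic stem cells were set against reprogramming cells at day 6 by comparing the ATAC-seq peak lists of the 2 stages, 2 libraries each. ATAC-seq uses a transposase to insert adapters into accessible DNA, so that a peak marks a stretch of open chromatin. Overlapping peaks of the 4 lists were merged into 143044 regions. A region was called gained in embryonic stem cells if both ESC lists and neither DAY6 list held a peak there, and lost in the opposite case. By this rule 23929 regions were gained (16.7% of the merged regions) and 11830 were lost (8.27%). Of the rest, 28057 had a peak in all 4 lists, 43020 had one in 1 ESC list only and 17963 in 1 DAY6 list only, and 18245 mixed the stages in other ways.

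The series follows mouse embryonic fibroblasts towards pluripotency in 10 libraries, a pair for each stage (MEF, DAY3, DAY6, DAY9 and ESC), all under 1 batch name. The DAY6 cells came from C57BL/6 x 129 mice that carry, at Col1a1, a cassette under doxycycline control (Oct4, Klf4, Sox2 and Myc), and at Rosa26 the activator M2rtTA. They had received 1 ug/ml doxycycline and 50 ug/ml ascorbic acid in ESC medium for 6 days, and were sorted for the surface antigen SSEA1, which marks cells advancing towards pluripotency. The ESC libraries came from 1 line, V6.5, also C57BL/6 x 129, grown on irradiated feeder fibroblasts with serum and LIF. These cells carried no cassette, received neither doxycycline nor ascorbic acid and were not sorted. Cassette, drug, ascorbic acid, feeders and sorting all coincide with the stage, so what each contributes cannot be told apart. The labels do not say whether the 2 libraries of a stage came from separate cultures.

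Pluripotency rests on a network of transcription factors around Oct4, Sox2 and Nanog, to which naive factors such as Esrrb, Klf4, Tfcp2l1 and Prdm14 add self-renewal in LIF. The factors bind mostly at enhancers, short distal elements that are open in the cells that use them. In germline development many promoters rich in CG dinucleotides are held shut by DNA methylation in somatic cells. AP-1, the Jun and Fos dimer, binds enhancers in fibroblasts and many other differentiated cells, at sites that read TGANTCA.

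The bases of 9 promoters are printed here as examples, each as the 250 bases before the annotated start, 5′ to 3′ on the strand of the gene, from RefSeq on GRCm38.p6 (mm10). The first 5 overlapped gained regions and belong to Nanog, a core pluripotency factor, and to Dnmt3l, Sycp3, Mael and Ddx4, which act in DNA methylation, meiosis and piRNA biology of the germline. Capitals mark CG dinucleotides, which number from 3 in Nanog and Dnmt3l to 31 in Ddx4.
Nanog (chr6:122707239-122707488, plus strand): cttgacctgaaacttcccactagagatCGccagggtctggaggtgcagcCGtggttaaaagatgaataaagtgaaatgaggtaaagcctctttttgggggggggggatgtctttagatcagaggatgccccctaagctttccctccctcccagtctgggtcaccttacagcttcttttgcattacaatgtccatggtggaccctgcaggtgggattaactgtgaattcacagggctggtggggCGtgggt
Dnmt3l (chr10:78055085-78055334, plus strand, 1 of its annotated starts): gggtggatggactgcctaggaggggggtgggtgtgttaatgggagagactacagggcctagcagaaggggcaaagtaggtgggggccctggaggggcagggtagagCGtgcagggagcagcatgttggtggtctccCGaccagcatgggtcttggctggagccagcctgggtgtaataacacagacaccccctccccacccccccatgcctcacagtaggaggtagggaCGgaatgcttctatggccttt
Sycp3 (chr10:88459337-88459586, plus strand): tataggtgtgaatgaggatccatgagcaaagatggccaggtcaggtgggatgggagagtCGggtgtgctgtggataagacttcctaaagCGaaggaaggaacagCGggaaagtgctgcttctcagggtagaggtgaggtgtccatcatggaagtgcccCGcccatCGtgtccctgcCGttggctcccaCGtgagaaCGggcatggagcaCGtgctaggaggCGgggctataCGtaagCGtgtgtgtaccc
Mael (chr1:166238745-166238994, minus strand): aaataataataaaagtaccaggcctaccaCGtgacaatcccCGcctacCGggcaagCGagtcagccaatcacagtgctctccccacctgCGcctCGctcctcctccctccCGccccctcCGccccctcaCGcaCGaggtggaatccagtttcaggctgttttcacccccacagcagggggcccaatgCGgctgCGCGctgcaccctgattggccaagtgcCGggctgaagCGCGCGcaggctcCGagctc
Ddx4 (chr13:112652311-112652560, minus strand): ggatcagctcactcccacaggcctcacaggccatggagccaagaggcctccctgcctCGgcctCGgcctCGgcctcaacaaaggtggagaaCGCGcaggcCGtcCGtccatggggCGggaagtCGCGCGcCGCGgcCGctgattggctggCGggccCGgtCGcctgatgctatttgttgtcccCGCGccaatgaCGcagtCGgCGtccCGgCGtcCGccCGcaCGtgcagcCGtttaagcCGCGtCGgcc
The other 4 overlapped lost regions. They are the highest-ranked lost promoters with TGANTCA in these bases on either strand and no other annotated start on that strand within them, and capitals mark the match. The match was a condition of this choice, and 26 of 157 genes with a promoter in a lost region (16.6%) held one in such windows. The contrast between the printed promoters thus comes from how they were chosen. Ugt1a6a is a glucuronosyltransferase, Mndal an interferon-inducible protein, S100a16 a calcium-binding protein and Sec14l1 a lipid-transfer family protein. Ugt1a6a and Mndal belong to families of similar genes, so the placement of their reads is uncertain.
Ugt1a6a (chr1:88134559-88134808, plus strand): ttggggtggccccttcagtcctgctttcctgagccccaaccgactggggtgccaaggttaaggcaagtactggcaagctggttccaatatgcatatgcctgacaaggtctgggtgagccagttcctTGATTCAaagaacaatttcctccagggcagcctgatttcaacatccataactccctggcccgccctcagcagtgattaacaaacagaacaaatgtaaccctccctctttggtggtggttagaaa
Mndal (chr1:173880188-173880437, minus strand, 1 of its annotated starts): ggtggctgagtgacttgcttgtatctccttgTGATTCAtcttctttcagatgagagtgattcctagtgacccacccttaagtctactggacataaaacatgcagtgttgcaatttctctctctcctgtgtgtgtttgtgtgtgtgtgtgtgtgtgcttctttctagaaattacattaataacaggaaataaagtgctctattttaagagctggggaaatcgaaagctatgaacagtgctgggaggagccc
S100a16 (chr3:90540896-90541145, plus strand): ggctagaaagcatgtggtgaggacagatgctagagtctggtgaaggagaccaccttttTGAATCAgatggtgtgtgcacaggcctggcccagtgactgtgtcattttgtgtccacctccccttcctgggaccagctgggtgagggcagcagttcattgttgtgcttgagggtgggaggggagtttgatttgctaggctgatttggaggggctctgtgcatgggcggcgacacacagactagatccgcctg
Sec14l1 (chr11:117135758-117136007, plus strand): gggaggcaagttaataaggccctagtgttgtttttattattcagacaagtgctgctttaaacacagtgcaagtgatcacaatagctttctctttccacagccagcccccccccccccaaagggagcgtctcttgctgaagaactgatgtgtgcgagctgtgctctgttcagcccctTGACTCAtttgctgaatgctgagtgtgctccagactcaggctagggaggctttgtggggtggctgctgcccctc

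The DAY6 lists held 65145 and 58969 peaks and the ESC lists 86585 and 88980, a mean of 62057 ± 4367 (SD, n = 2) against 87782.5 ± 1694 (SD, n = 2). Every ESC list was longer than either DAY6 list, and the two-sided exact permutation test gave p = 0.333, the smallest value that 2 libraries against 2 allow. Read totals are not given in the sources used here. The commonest expected pileup in a list, a measure of relative depth, was 3.45 and 2.33 reads for DAY6 and 3.48 and 5.46 for ESC. A peak over that commonest background needed a fold of at least 3.37 and 3.61 in the DAY6 lists, and 3.35 and 2.94 in the ESC lists. Over a higher local background lower folds were called too. Fold is here the authors' linear ratio of a peak's summit to its local background, used only to describe and rank peaks. The 2 DAY6 lists shared 0.564 of their covered bases (Jaccard index), the 2 ESC lists 0.501, and lists of different stages 0.301 to 0.317. Replicates were thus more alike than stages.

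Marker genes, counted as open where a peak lay within 1 kb of either gene end, were checked against the labels. Of 8 pluripotency markers, 5 and 5 were open in the DAY6 libraries and 8 and 7 in the ESC libraries. Nanog and Prdm14 were open in both ESC libraries and neither DAY6 library, and Esrrb in ESC replicate 1 only. All 4 epithelial markers (Cdh1, Epcam, Esrp1 and Krt8) were open in all 4 libraries. Of 8 fibroblast markers, 4 and 3 were open at DAY6 and 5 and 5 in ESC. Col3a1 and Postn, which encode matrix proteins of fibroblasts, were open in none of the 4, and Prrx1, a mesenchymal regulator, in ESC only. Beyond the 1 kb, one annotated start of Prrx1 had a peak in both DAY6 lists (folds 2.51 and 2.64) and in neither ESC list. The ESC cultures contained feeder fibroblasts, and their part in the gained regions was not tested.

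The excess of gained over lost regions changed with the length of the lists. With each of the 4 lists cut to its 58969 best-scoring peaks, 13782 regions were gained and 14424 lost, so the order of the counts turned. A second restriction kept gained regions whose folds in both ESC lists reached 3.61, and lost regions whose folds in both DAY6 lists reached 3.35, the smallest folds callable over the commonest background in the less sensitive list of the other stage. This left 15225 gained regions (10.6% of the merged regions) and 11074 lost regions (7.74%), that is 63.6% of the gained and 93.6% of the lost. Without ESC replicate 1 the gained regions numbered 47076 and without ESC replicate 2 44778. Without DAY6 replicate 1 the lost regions numbered 19415, and without DAY6 replicate 2 22743. For the members of the gene lists, the number of regions that passed the fold restriction is given where it was lower.

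Both sets lay mostly away from gene ends. Only 5.50% of gained regions and 4.91% of lost regions came within 1 kb of an end of a protein-coding gene. The share was 41.8% for regions with a peak in all 4 lists and 13.0% for all merged regions. With the best 50% of each list the gained and lost shares were 7.14% and 7.41%. Where the gained and lost sets differed was inside genes: 41.8% of gained regions overlapped a protein-coding gene, and 55.5% of lost regions did, with 52.2% of all merged regions. Gained regions outside genes had a median distance of 49.1 kb to the nearest gene, and lost regions 39.1 kb. Gained regions were also commoner in gene deserts. Of the gained regions 20.9% lay over 100 kb from any protein-coding gene and 5.71% over 500 kb, against 13.4% and 1.83% of the lost regions and 14.5% and 3.23% of all merged regions. Regions neighbour each other and share libraries, so these shares carry no test. Median widths were alike, 618 bp for gained and 584 bp for lost regions, and both were narrower than the 917 bp of regions found in all 4 lists. The X chromosome held 3.83% of gained and 2.67% of lost regions, against 2.82% of all merged regions. On the Y chromosome lay 76 gained (0.318%) and 2 lost regions (0.0169%), against 0.193% of all merged regions. The sex of the cells was not compared between the stages, and its part in the X and Y shares was not tested.

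**Figure D1:**
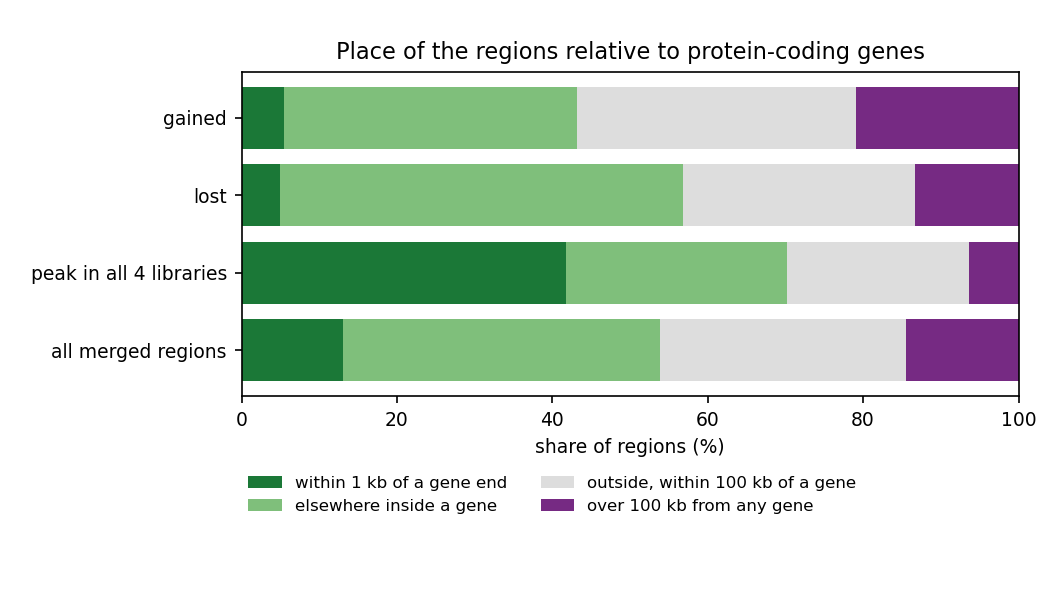
Stacked bars give the share of regions (%) by place relative to protein-coding genes for gained regions, lost regions, regions with a peak in all 4 libraries and all merged regions. Regions within 1 kb of a gene end make up 5.50% of gained and 4.91% of lost regions against 41.8% of those in all 4 libraries, and 20.9% of gained regions lie over 100 kb from any gene.

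The lists of the other stages, which the rule did not use, separated the sets. The 2 DAY3 lists and the 2 DAY9 lists were more alike than the pairs of the other stages. Their Jaccard indices were 0.637 and 0.696, against 0.476 for MEF, 0.564 for DAY6 and 0.501 for ESC. As a caution, each of these 2 pairs is read as 1 sample. Of the gained regions, 7.76% and 5.86% had a peak in the MEF libraries, 1.99% and 2.01% at DAY3, and 19.5% and 19.5% at DAY9. Of the lost regions, 21.3% and 16.4% had one in the MEF libraries, 60.4% and 60.9% at DAY3, and 81.0% and 81.6% at DAY9. In both MEF libraries, at DAY3 and at DAY9 the share was higher for the lost regions. Of all merged regions, 25.9% and 20.7% had a peak in MEF, 27.3% and 27.2% at DAY3 and 46.5% and 46.7% at DAY9, between the sets at DAY3 and DAY9 and above both in MEF. Depth differed between these lists too. The commonest expected pileup was 3.42 and 8.32 reads for MEF, 5.30 and 5.27 for DAY3 and 7.33 and 7.37 for DAY9. A peak over it needed a fold of at least 2.64 and 2.63 at DAY9, against 3.37 and 3.61 at DAY6. The part of depth in these shares was not tested.

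Most gained regions were seen in ESC alone: 16521 (69.0%) had no peak in any MEF, DAY3 or DAY9 list. Another 3251 (13.6%) had a peak in both DAY9 lists, and 9.10% of these lay at gene ends, with 4.21% of the regions seen in ESC alone. A small group of 370 gained regions (1.55%) had a peak in both MEF lists and in no DAY3 or DAY9 list, that is, they were open in uninduced fibroblasts and in ESC and in no list between. The ESC cultures held feeder fibroblasts, whose part in this group was not tested.

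Most lost regions were also open at other stages of reprogramming. Of the 11830, 9000 (76.1%) had no peak in a MEF list and 8918 (75.4%) had one in both DAY9 lists. In 3604 (30.5%) there was no MEF peak but a peak in both DAY3 and both DAY9 lists, and in 2455 (20.8%) there was no MEF or DAY3 peak and a peak in both DAY9 lists. Only 1628 (13.8%) had a peak in both MEF lists, and 423 (3.58%) were seen at DAY6 and nowhere else. The 1502 lost regions (12.7%) without a DAY9 peak had lower median folds at DAY6 (4.15 and 4.21) than those in both DAY9 lists (5.80 and 5.96).

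**Figure D2:**
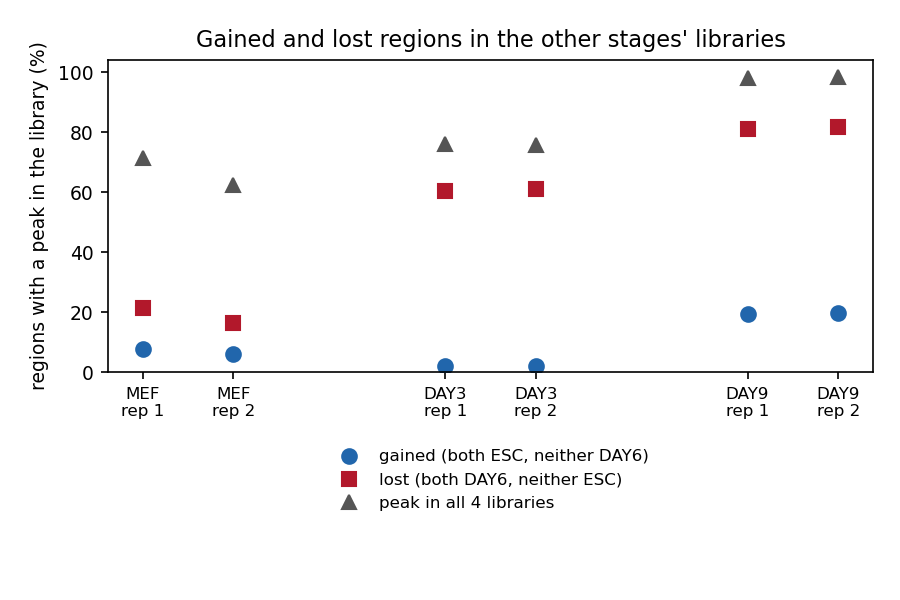
Points give, for each MEF, DAY3 and DAY9 library, the share (%) of gained regions, lost regions and regions with a peak in all 4 compared libraries that had a peak there. Lost regions reach 81.0% and 81.6% at DAY9 while gained regions stay at 19.5%.

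Among the 10 gained regions with the best mean score rank in the 2 ESC lists, 3 lay over 500 kb from a protein-coding gene. These were chr12:62706931-62708196, 849 kb from Lrfn5, chr4:26944205-26945149, 597 kb from Manea, and chr5:55791664-55792506, 1671 kb from Stim2. The region ranked first, chr6:135706760-135707657, lay 5.56 kb from Grin2b, a subunit of the NMDA glutamate receptor, with folds of 22.6 and 18.8 in ESC and 4.37 and 3.64 at DAY9. The next, chr2:160957318-160958155 inside the chromatin remodeller gene Chd6, had folds of 18.3 and 15.0 in ESC, 4.68 and 4.54 at DAY9 and 5.36 in MEF replicate 1 only. A region 0.451 kb from Pdk4, a kinase that holds back pyruvate oxidation (chr6:5482120-5482900), had folds of 19.3 and 15.9 in ESC and 6.60 and 5.02 at DAY9. At DAY9, 8 of the 10 had a peak in at least 1 list. The 2 without one were those nearest Manea and Stim2, with ESC folds of 23.3 and 17.1, and 19.96 and 17.2. The other 4 lay 2.17 kb from Tmprss11a, a serine protease, 172 and 68.2 kb from Brinp3 (2 regions), and 28.1 kb from Prl2c5, of the prolactin family.

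All 10 lost regions with the best ranks had peaks in both DAY3 and both DAY9 lists. The first, chr2:143634853-143635580 inside Pcsk2, a prohormone convertase, had folds of 9.52 and 10.2 at DAY3, 19.2 and 20.8 at DAY6, and 17.6 and 16.8 at DAY9. The second, chr15:44700998-44702136 inside Sybu, had folds of 11.5 and 12.01 at DAY3, 14.4 and 16.2 at DAY6, and 13.0 and 14.6 at DAY9. At both, every library from DAY3 to DAY9 held a peak and neither MEF nor ESC library did. The others lay inside Vps13d, Pcdh9, Kcnk13 and Flrt2 or 70.0 kb from Picalm, 84.5 kb from Cyyr1, 14.3 kb from Syt17 and 36.9 kb from Nox3. A MEF peak was found at only 2 of the 10, nearest Syt17 (folds 8.03 and 3.33) and nearest Nox3 (8.37, replicate 2 only).

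Genes were tied to a region inside them or within 10 kb. By this measure 8355 of 21883 protein-coding genes (38.2%) had a gained region and 5375 (24.6%) a lost one, and 2845 had both. With the fold restriction the shares were 25.3% and 22.9%. Longer genes hold more regions: the median gene spanned 17.2 kb, those with a gained region 34.7 kb and those with a lost region 47.6 kb. No test of a list against other genes was made.

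Naive pluripotency factors had gained regions at 13 of 15 genes (86.7%, against 38.2% of all genes) and lost regions at 2 of 15 (13.3%, against 24.6%). Their median was 2 gained regions a gene, against 0 for all genes, although the median gene of this list spanned only 7.14 kb. With the fold restriction 10 of the 15 kept a gained region (66.7%, against 25.3% of all genes). The 2 genes with neither kind were Klf2 and Klf4. Esrrb, an orphan nuclear receptor of the naive network, had 9 gained regions and no lost one, 8 inside the gene and 1 at 3.85 kb from it. Its region chr12:86478576-86479381 had folds of 8.12 and 3.97 in ESC and 5.40 and 4.78 at DAY9, and was the only 1 of the 9 with a DAY9 peak. Of the 9, 4 passed the fold restriction. Tfcp2l1, a factor of the LIF response, and Nr5a2, a nuclear receptor that can regulate Oct4, had 5 gained regions each, and 1 of the 5 passed the fold restriction at each gene.

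Nanog had 3 gained regions and no lost one. The one over its start, chr6:122707044-122707688, which holds the promoter bases printed above, had folds of 5.32 and 3.14 in ESC and of 2.25 and 2.42 at DAY9, with no peak in the MEF, DAY3 and DAY6 lists. Both DAY9 folds lay under the 3.37 and 3.61 that a peak over the commonest background needed in the DAY6 lists. The second, 0.790 kb from the gene (chr6:122715423-122716379), had folds of 6.11 and 4.18 in ESC and no peak elsewhere. That second region passed the fold restriction, and the one over the start did not, because its fold in ESC replicate 2 lay under 3.61. Zfp42, which encodes the stem cell marker Rex1, had 4 gained regions and none passed the restriction. Its highest-ranked region had folds of 5.78 and 3.42.

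**Figure D3:**
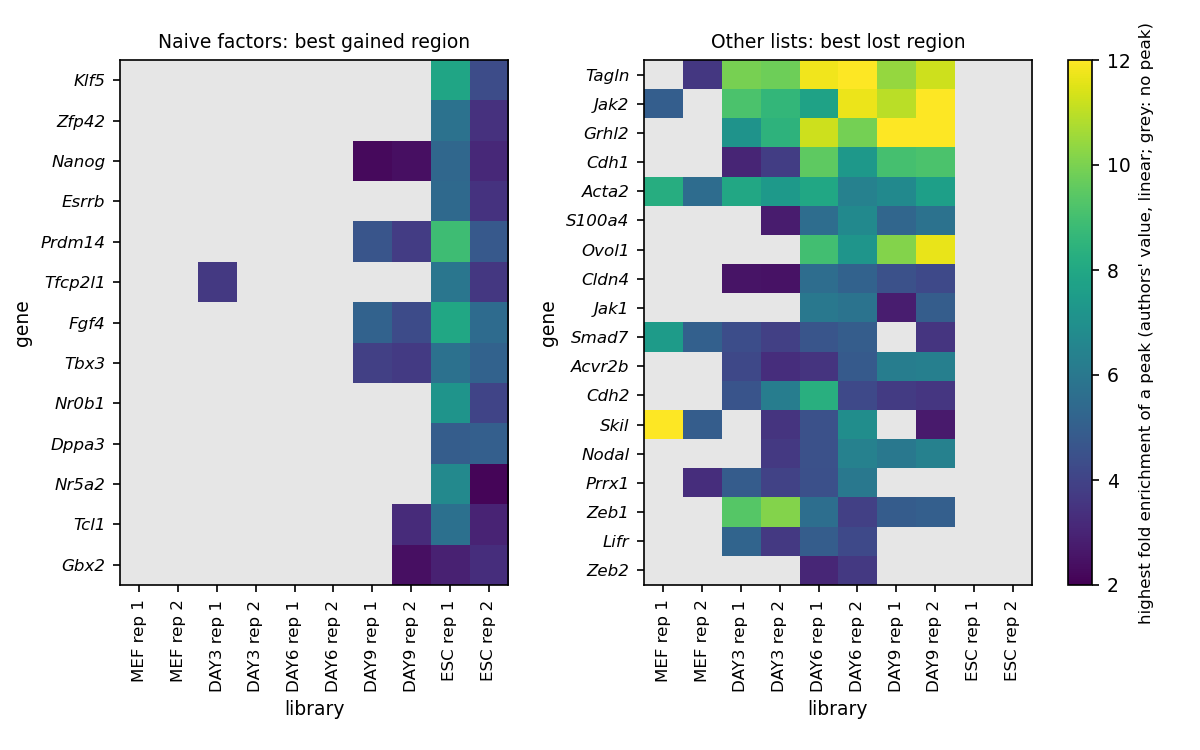
Heat maps of the highest peak fold (the authors' linear ratio, colour scale from 2 to 12 with higher values at the top colour, grey where the list holds no peak) in 10 libraries at the highest-ranked gained region of each naive factor (left) and the highest-ranked lost region of fibroblast, epithelial and Nodal or LIF genes (right). By the rule, gained regions are grey at DAY6 and lost regions grey in ESC, and most lost regions shown are coloured at DAY9.

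Core and general pluripotency genes had gained regions at 7 of 14 genes (50%, against 38.2% of all genes). Lost regions lay at 3 of 14 (21.4%, against 24.6%). One of the 3 is Sox2, which like Pou5f1 is a cassette gene and is read separately below. With lists of equal length 5 of 14 had a gained and 5 a lost region, against 5322 and 6545 of all 21883 genes. Under the fold restriction the counts were 5 and 1 (35.7% and 7.14%, against 25.3% and 22.9% of all genes). Dppa2 and Dppa4, neighbouring genes whose products help prime promoters in early embryos, had 4 and 5 gained regions, 1 of them shared, and no lost or constant region. The shared one, chr16:48303130-48304402, had folds of 5.38 and 10.0 in ESC and also 4.76 and 3.00 in MEF, with none at DAY3, DAY6 or DAY9. The other gained regions of Dppa2 and Dppa4 had no peak outside ESC. Of the gained regions, 2 of 4 at Dppa2 and 1 of 5 at Dppa4 passed the fold restriction. Dppa5a, which encodes an RNA-binding protein of pluripotent cells, had 5 gained regions, of which 1 passed the fold restriction, and 1 lost one. Pou5f1 (Oct4), Sall4, Lin28a, Utf1 and Mycn were among those with neither. Among formative and primed genes, 6 of 14 had a gained region and 2 a lost one (42.9% and 14.3%, against 38.2% and 24.6% of all genes). Lef1, a Wnt effector, had 6 gained regions, of which 1 passed the restriction, and 2 lost ones, and Otx2, a factor of the transition out of the naive state, had 3 gained. None of those at Otx2 passed the fold restriction, and 2 of the 14 genes kept a gained region under it (14.3%, against 25.3% of all genes).

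DNA methylation and germline genes had gained regions at 8 of 14 genes (57.1%, against 38.2% of all genes). Lost regions lay at 4 (28.6%, against 24.6%). Dnmt1, Uhrf1, Dazl and Stra8 had neither kind. Under the fold restriction 7 kept a gained and 3 a lost region (50% and 21.4%, against 25.3% and 22.9% of all genes). The median gene of this list spanned 45.0 kb, against 17.2 kb for all genes. At Ddx4, an RNA helicase of germ cells, the gained region chr13:112651814-112652718 over the start had folds of 9.64 and 6.19. At Mael, which takes part in transposon silencing, the region over the start (chr1:166238222-166239261) had folds of 8.92 and 6.50, and the other of its 2 gained regions did not pass the restriction. At Sycp3, a component of the synaptonemal complex, chr10:88459258-88459892 had folds of 8.64 and 3.95 and its neighbour chr10:88459946-88460893 had 6.80 and 5.35. None of these 4 regions had a peak in any of the 8 other libraries. Dnmt3l, the cofactor of the de novo DNA methyltransferases, had 3 gained regions, of which 1 passed the fold restriction. The one at its printed start (chr10:78055242-78055622, folds 3.35 and 4.34) did not pass it, and also had a peak of 5.44 in MEF replicate 1. Prdm1, needed for germ cell specification, had 5 gained regions, of which 2 passed the restriction, and no lost one. Tet2, a 5-methylcytosine dioxygenase, had 4 of each, and 2 of the gained and all 4 of the lost passed the restriction. Its lost region chr3:133509912-133510603 had folds of 5.77 and 9.18 at DAY6 and 6.15 and 6.02 at DAY9, and its gained region chr3:133485753-133486312 had 5.59 and 4.49 in ESC only.

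Nodal and LIF signalling genes had gained regions at 7 of 13 genes and lost regions at 7 of 13 (53.8% each, against 38.2% and 24.6% of all genes). With the fold restriction 4 kept a gained region and all 7 a lost one (30.8% and 53.8%, against 25.3% and 22.9% of all genes). The median gene of this list spanned 28.6 kb, against 17.2 kb for all genes. Jak1, a kinase that transmits LIF signals, had 4 lost regions and 1 gained region, and the gained one did not pass the restriction. Jak2 had 2 lost regions, of which 1 passed, and no gained one. In the other direction, Lifr had 3 gained regions, all of which passed, and 1 lost one. Il6st had 2 gained regions, of which 1 passed, and no lost one. The lost region at 0.399 kb from Jak1, chr4:101151058-101151575, had folds of 6.02 and 5.80 at DAY6 and 2.80 and 4.96 at DAY9 and no peak in MEF and DAY3. Acvr2b, a receptor for Nodal and activin, had 3 lost regions and no gained one. Nodal itself, the ligand, had 1 lost region at 7.38 kb (chr10:61410072-61410588), with folds of 4.49 and 6.40 at DAY6 and 6.02 and 6.41 at DAY9. Its antagonists Lefty1 and Lefty2 had 1 gained region each, and that of Lefty2 did not pass the fold restriction.

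Early epithelial genes had gained regions at 5 of 15 and lost regions at 4 of 15 (33.3% and 26.7%, against 38.2% and 24.6% of all genes). A gained region was kept by 3 under the fold restriction and a lost one by 4 (20% and 26.7%, against 25.3% and 22.9% of all genes). Cdh1, which encodes E-cadherin, had 5 gained regions and 1 lost one. The lost one, chr8:106644630-106645541 inside the gene, had folds of 3.03 and 3.80 at DAY3, 9.50 and 7.35 at DAY6 and 9.04 and 9.15 at DAY9. The folds of the 5 gained regions ranged from 2.47 to 7.57 in the ESC lists, and 2 of them passed the fold restriction. Grhl2, a regulator of epithelial genes, had 3 lost regions and 1 gained region, which did not pass the restriction. The highest-ranked lost one, chr15:37371836-37372382, had 7.14 and 8.45 at DAY3, 11.2 and 9.92 at DAY6 and 12.8 and 12.9 at DAY9. Ovol1, a repressor of mesenchymal genes, had 2 lost regions. Cdh1, Grhl2 and Ovol1 thus each had a region open in all DAY6 and DAY9 lists and in neither ESC list. Elf3 and Ocln went the other way, with 2 and 1 gained regions, all of which passed the restriction, and no lost one. Cldn4 had 1 lost region and 2 gained ones, and neither gained one passed.

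Fibroblast and mesenchymal genes had gained regions at 9 of 20 (45%, against 38.2% of all genes) and lost regions at 7 of 20 (35%, against 24.6%). Under the fold restriction the counts were 8 and 6 (40% and 30%, against 25.3% and 22.9% of all genes). The median gene of this list spanned 33.9 kb, against 17.2 kb for all genes. Acta2, smooth muscle actin, had a lost region over its start (chr19:34254280-34255810) with folds of 8.23 and 5.54 in MEF, 8.01 and 7.37 at DAY3, 7.97 and 6.39 at DAY6 and 6.75 and 7.64 at DAY9. All 8 libraries outside ESC thus held a peak over the start of Acta2. The gene also had 1 gained region, which passed the fold restriction. Tagln, transgelin, had a lost region at 8.70 kb (chr9:45920046-45920925) with 11.8 and 16.4 at DAY6, 9.94 and 9.78 at DAY3 and 10.4 and 11.2 at DAY9, but a MEF peak in replicate 2 only (3.62). Zeb2, a repressor of E-cadherin, had 4 gained regions, all of which passed the fold restriction, and 1 lost region, which did not. Prrx1 had 2 of each kind, and none of the gained and 1 of the lost passed the restriction. Col3a1 and Pdgfrb had 2 gained regions each and Fn1 and Col1a2 1 each, all of which passed, and no lost one. S100a4 had 2 lost regions, both of which passed, and no gained one. The feeder cells share these markers, and their part in the gained regions was not tested.

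Genes of AP-1, Tead and Runx factors had gained regions at 10 of 17 (58.8%, against 38.2% of all genes) and lost regions at 6 of 17 (35.3%, against 24.6%). Under the fold restriction 6 of 17 kept a gained and 5 a lost region (35.3% and 29.4%, against 25.3% and 22.9% of all genes). With lists of equal length 6 had a gained and 10 a lost region, against 5322 and 6545 of all 21883 genes. Runx1, a haematopoietic factor also active in fibroblasts, had 5 lost and 2 gained regions, and Runx2, a factor of bone formation, 4 lost and 3 gained. Of the gained regions 1 and 2 passed the restriction. The lost region chr16:92757455-92758021 of Runx1 had folds of 6.74 and 10.8 at DAY6 and 11.8 and 9.69 at DAY9 and no peak in MEF and DAY3. All 9 lost regions of the 2 genes passed the fold restriction. Fos, Fosb, Fosl1, Fosl2 and Cebpa had neither kind. Trophoblast and endoderm genes had gained regions at 8 of 13 genes (61.5%, against 38.2% of all genes). Under the fold restriction this fell to 2 of 13 (15.4%, against 25.3% of all genes). Lost regions lay at 2 (15.4%, against 24.6%). Elf5, a trophoblast factor, had 1 lost region at 4.78 kb (chr2:103406211-103407314) with folds of 7.34 and 7.54 at DAY3, 13.3 and 9.65 at DAY6 and 9.75 and 11.2 at DAY9. Hnf4a, an endoderm factor, had 2 lost regions, of which 1 passed the restriction.

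**Figure D4:**
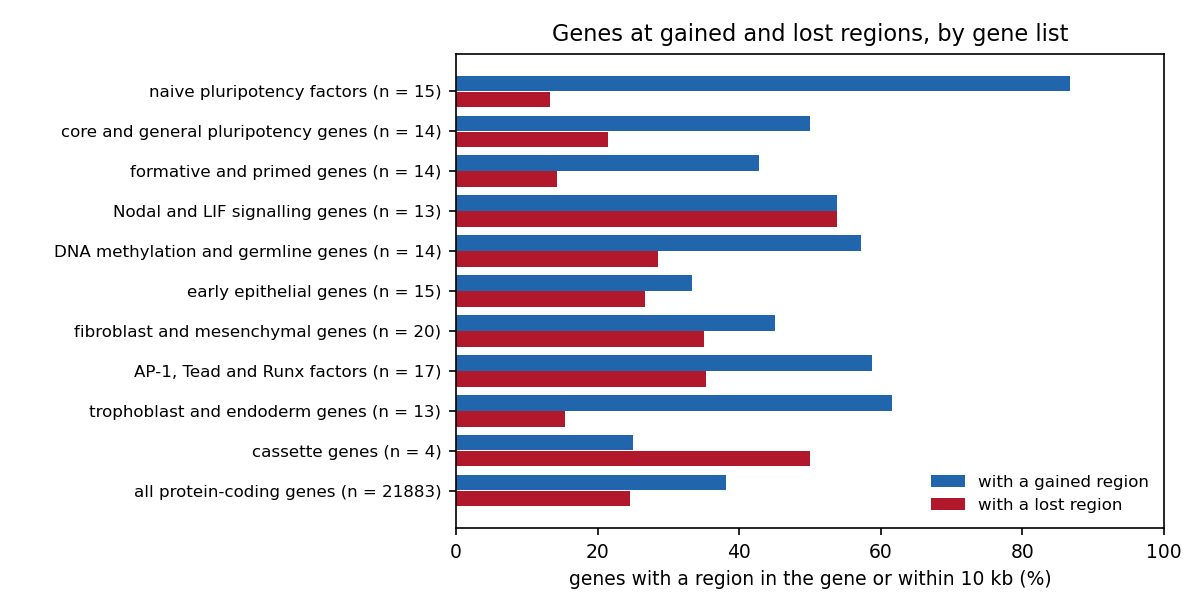
Paired bars give the share (%) of genes in each list with a gained or a lost region inside the gene or within 10 kb, with all 21883 protein-coding genes at the bottom. The naive factors stand at 86.7% for gained and 13.3% for lost regions, against 38.2% and 24.6% of all genes.

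Genes of the cassette need separate reading, since reads from the integrated copies of Oct4, Klf4, Sox2 and Myc fall on the endogenous genes. Sox2 is a gene of a single exon, and the lost region inside it, chr3:34650432-34651268, had peaks in all 8 libraries that carry the cassette and in neither ESC library. Its folds were 3.15 and 5.09 in the uninduced MEF, 5.13 and 5.39 at DAY3, 3.02 and 5.07 at DAY6 and 4.61 and 4.59 at DAY9. The presence of the cassette and the stage cannot be told apart here, and the region did not pass the fold restriction. Inside Pou5f1, the cassette libraries held 2 or 3 peaks lying wholly within the gene and the ESC libraries 1 each. Myc had 1 lost region inside the gene (chr15:61987760-61988178, folds 2.42 and 2.36 at DAY6), which did not pass it, and 1 gained region at 6.01 kb (chr15:61978762-61979333, folds 10.1 and 4.96 in ESC and 2.43 in DAY9 replicate 1).

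Long genes headed the count of regions per gene. Pde4d, a phosphodiesterase gene of 1302 kb, had the most gained regions, 23, and also 15 lost ones. Etl4 followed with 21 gained and 6 lost and Cntnap2, a neurexin-family gene of 2241 kb, with 19 gained and 4 lost. Zfp978, a zinc finger gene of 267 kb in its annotated span, had 18 gained regions and no lost one. Lost regions were most frequent at Zbtb20, a transcriptional repressor, with 18 lost and 9 gained, and at Magi2, Cdh13 and Nav2 with 17 lost each and 8, 3 and 4 gained. Tenm3 and Plcb4 had 18 gained regions each, with 11 and 6 lost, and Auts2 had 17 and 10. Foxp1 had 15 lost and 5 gained regions, Slit3 13 and 3, Pdzd2 12 and 8, and Nrxn3 12 and 7. Aopep, an aminopeptidase gene of 361 kb, had 13 lost regions and 1 gained. Pde4d was among the first 10 genes in both orders. Zfp978 belongs to a family of similar zinc finger genes, so the placement of its reads is uncertain.

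Runs of 4 or more regions of a set with gaps of at most 10 kb numbered 113 for gained regions (501 regions, 2.09% of the set) and 19 for lost regions (88 regions, 0.744%). The longest gained runs held 7 regions each. One lay 85.7 kb from the nearest of Gadd45a and Serbp1 (chr6:67123094-67153431), one 37.8 kb from Gpbp1 (chr13:111527928-111561243), and one at Cradd (chr10:95236079-95265207). No region of these 3 runs had a DAY3 peak. Runs of 6 gained regions lay at Morc1 (chr16:48610927-48630235) and Plcb4 (chr2:135678206-135710122). Both of the longest lost runs lay on chromosome 6, with 9 regions at chr6:47738517-47777263 between Gm40363 and Pdia4 and 8 regions at chr6:47653672-47684343 over an array of predicted genes. All 17 regions had a peak in both DAY9 lists and none in MEF, and 15 constant regions lay among them. The promoter windows of Gm40364, Gm40369, Gm40367 and Gm36327 in the array were 100% identical, so reads there could come from several copies and the counts of regions are uncertain. Away from such copies, a lost run of 5 regions lay 206 kb from Mn1 (chr5:111663455-111681858) and another at the phosphatase gene Ptprj (chr2:90522201-90547779).

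Of 17491 protein-coding genes with RefSeq promoter windows (250 bases before and 50 after a start), 426 (2.44%) had a window that overlapped a gained region and 157 (0.898%) one that overlapped a lost region, against 10002 with one in a region of all 4 lists. Promoters of both sets were poorer in CG dinucleotides. The median number of CG in the 300 bases was 9 for gained, 6 for lost and 22 for constant windows, and 13 for all windows. Among the 9 printed promoters, the number ranged from 1 in the window of Mndal to 38 in that of Ddx4.

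Some other gained promoters among the first 60 by rank are named here, picked out by hand after their values were seen and with no test. Mageb16, of the melanoma antigen family, had folds of 20.3 and 16.8 in ESC and no peak in the other 8 libraries. Naa11, an acetyltransferase gene of testis, had 12.5 and 12.2, and D1Pas1, a testis helicase, 10.2 and 7.48, also with none elsewhere. Syce3, of the synaptonemal complex, had 11.4 and 7.90 in ESC alone, and Hormad2, a meiotic checkpoint protein, 12.3 and 9.26 in ESC with 3.36 and 5.02 at DAY9. Tex19.1, which restrains transposons in germ cells, had 11.4 and 8.99 in ESC and 3.28 and 2.55 at DAY9. Spata4, another testis gene, had 11.4 and 8.50 in ESC and also 8.73 and 4.18 in MEF and 5.04 and 3.70 at DAY9. Pou5f2, a relative of Oct4, had 7.97 and 9.44 in ESC and 3.00 and 3.22 at DAY9. A peak over the commonest background needed 3.37 and 3.61 in the DAY6 lists. The DAY9 folds of Tex19.1 and Pou5f2 lay under both values, those of Hormad2 on either side and those of Spata4 above both. The promoter region ranked first was that of Zfp640, with folds of 22.5 and 18.7 in ESC and peaks in MEF (3.32 and 2.52) and DAY3 replicate 2 (2.92). Zfp640 has similar zinc finger neighbours, so the placement of its reads is uncertain.

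Fewer promoters overlapped lost regions. Cdkn1a, the cell cycle inhibitor p21, had folds of 3.47 and 4.01 at DAY3, 4.32 and 3.60 at DAY6 and 4.43 and 3.85 at DAY9 and no peak in MEF or ESC at the window. Prrx1 had a lost region at one annotated start, with folds of 4.62 and 2.84 in MEF, 2.71 and 2.46 at DAY3 and 2.51 and 2.64 at DAY6 and no DAY9 peak. The AP-1 letters TGANTCA, searched on both strands, were present in windows of 26 of 157 lost genes (16.6%), 30 of 426 gained genes (7.04%), 3.87% of constant genes and 7.08% of all genes with windows. The Ets letters CCGGAAGT were found in 0 of 157 lost and 12 of 426 gained genes (2.82%), against 8.65% of constant genes and 5.29% of all. Of the 10 motifs searched, the Oct letters ATGCAAAT were in 3.18% of lost and 0.939% of gained genes against 1.71% of all, and the Sox letters CATTGTT in 3.82%, 1.88% and 3.41%. In the same order, the Klf letters GGGNGTGG were in 22.9%, 19.7% and 19.2%, and the Runx letters TGTGGTT in 6.37%, 5.16% and 4.84%. The Grhl letters AACCNGTT were in 3.82%, 3.05% and 1.94%, and the Tead letters GGAATGT in 3.18%, 2.11% and 3.30%. The Cebp letters TTGCGCAA were in 0%, 0.939% and 0.212%, and the Esrrb letters TCAAGGTCA in 0.637%, 0.235% and 0.332%. The sets also differed in base composition, with a median GC share of 53% in lost, 55.7% in gained, 62% in constant and 56.3% in all windows. TGANTCA holds no CG and CCGGAAGT holds one, and the part of base composition in these shares was not tested. A match describes letters in these windows and is not a bound site. Motifs were read in promoters only, where few of either set lie.

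**Figure D5:**
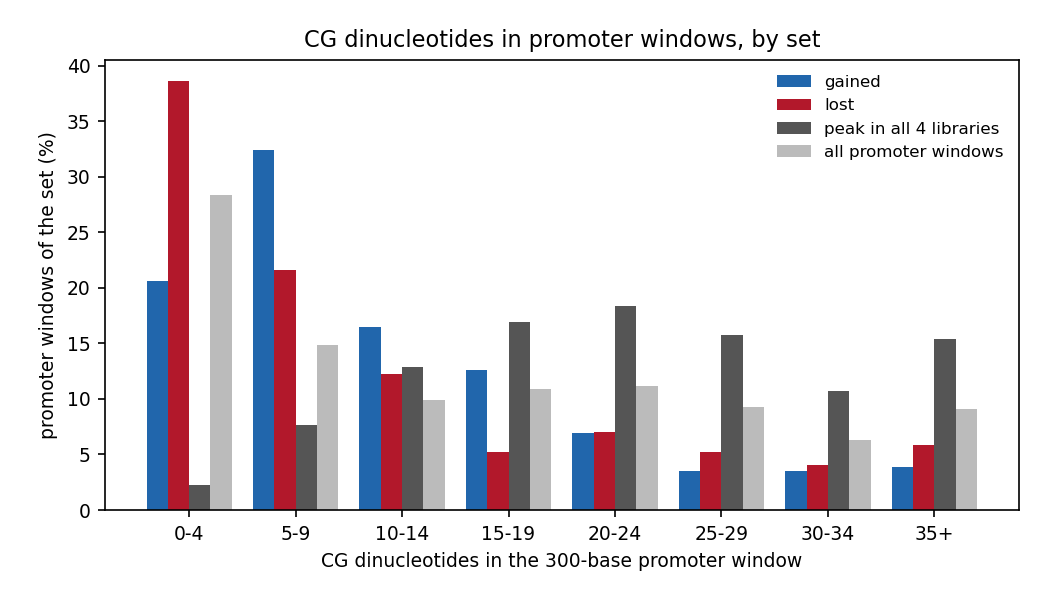
Bars give the share (%) of promoter windows in each set by the number of CG dinucleotides in the 300 bases. Windows in lost regions are most often in the class with 0 to 4 (38.6%), those in gained regions in the class with 5 to 9 (32.4%), and those in regions of all 4 libraries in the class with 20 to 24 (18.4%).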

How the data were processed

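ATAC-seq peak lists of 10 mouse libraries, 2 a stage, were used as the authors deposited them, 1 list for each library with peaks not called on pooled replicates. The submitters' processing notes name Bowtie2 2.3.2, MACS2 2.1.1, deepTools 2.3.6 and the mm10 build, with no role or order. Treatment of duplicates and of the transposase offset is not given in the sources used here. The tables carry no header and follow the narrowPeak layout. The deposited score is 10 times the −log10 p-value of the peak rounded down, with rare exceptions in 1 list (DAY6 replicate 2, where 99.99% fit), and no deposited −log10 p-value lies under 5. The fold in the authors' lists is a linear ratio, and the −log10 q-value was not used. Peak numbers in the names have gaps (58.2% to 70.8% remained in the 4 lists). Some peaks were therefore taken out of the lists before deposit, on grounds not given in the sources used here.

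Overlap meant at least 1 bp. Genes were the 21883 protein-coding genes of RefSeq on GRCm38.p6, with distances to the gene's span, because the table holds no strand or exons. Regions were ranked by score within each list and the ranks averaged over the 2 libraries. The rule for naming took the 10 regions and 10 genes at the head of each set, the 5 longest runs, and members of 10 gene lists with a region. The text leaves out 3 overlapping gene models and 1 lost run on chromosome 18, and gives many list members as counts only. Background pileups were recovered from the fold and the −log10 p-value. The 2 libraries of a stage cannot support a test below 0.333, so gained and lost regions are counts. Correlated replicate deviations between the stages (r = -0.0539 over 28057 regions, as a description) did not pair the replicate numbers. Members and gene lists were chosen with earlier results of these data known. Motifs in windows around region centres had been planned and were not run, as no genome was used here, and promoter windows were taken instead. Scripts used Python 3.11.15, numpy 2.4.6, pandas 2.3.3 and SciPy 1.17.1, and merging and calls were tested on simulated lists and against bedtools.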

Additional observations from a re-analysis of the deposited data

How the results depend on the processing

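Direction of the stage differences in peak number and in gene-end share of peaks held with peaks at or above the pooled median score. For the gene-end share it also held with equal list lengths, which fix the peak number and so were not tried for it. The replicate block leaves a difference of means unchanged by construction. Values of the 2 stages did not overlap, so leaving out a library could not reverse the direction either. With a replicate block (exact sign-flip test, smallest p 0.5 with 2 pairs) ESC lists held 25725.5 more peaks (exact p = 0.5) and a gene-end share 4.85 points lower (−4.85, exact p = 0.5), and leaving out a library gave differences of 22637.5 to 28813.5 peaks and −5.69 to −4.01 points. With equal list lengths the gene-end difference was −0.80 points, and with peaks at or above the pooled median score it was −8.64 points and 13235 peaks (exact permutation p = 0.333 each). The count of gained regions ranged from 26583 to 47076 and that of lost regions from 14697 to 22743 without 1 library. Equal list lengths gave 13782 gained regions, with 5.00% at gene ends and 22.5% with a DAY9 peak, and 6.30% of lost regions at gene ends, 22.6% with a MEF peak and 84.7% with a DAY9 peak. The best 50% of each list gave 12513 gained and 6181 lost regions, with 7.14% and 7.41% at gene ends. In that setting MEF, DAY3 and DAY9 peaks lay at 4.68%, 1.19% and 15.5% of gained and 14.5%, 57.3% and 83.02% of lost regions. Requiring 50% of the region to be covered gave 6.31% and 5.80% at gene ends, DAY3 peaks at 1.64% and 57.9%, and DAY9 peaks at 17.8% and 80.1% of gained and lost regions. The fold restriction, chosen after seeing the data, gave 15225 gained regions, gene-end shares of 4.52% and 4.48%, DAY3 and DAY9 peaks at 1.53% and 20.1% of gained regions, and 5531 genes with a gained region. A 2 kb limit gave gene-end shares of 8.53% and 8.25%. Genes with a gained region numbered 5428 in gene bodies only (8 naive factors), 14998 within 50 kb and 5322 with equal lists, and genes with a lost region 10068 within 50 kb (8 naive factors). Gaps of at most 20 kb gave 391 gained and 109 lost runs. Without 1 library the gene-end share was 5.30% to 6.31% of gained and 5.10% to 6.02% of lost regions. Peaks in MEF, DAY3 and DAY9 then lay at 6.14% to 10.5%, 1.81% to 4.85% and 14.3% to 28.7% of gained regions, and at 17.2% to 21.9%, 43.1% to 59.9% and 59.9% to 83.5% of lost regions. Windows of 500 bp around peak middles kept each count within 1.5 times. The cause of these shifts was not tested beyond list length and the number of lists, which enter by construction. Depth limits calls of absence: over the commonest background, a peak below 3.61-fold in ESC could be missed in DAY6 replicate 2.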
